A study of Homo sapiens with 4 samples.

Results

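The MYC, MAX and MXD network is a group of 10 genes, chosen by symbol, among the 60671 Ensembl genes listed for 22RV1 and PC3 cells. It holds the MYC paralogs MYC, MYCN and MYCL, the partner MAX, the antagonists MXD1, MXD3, MXD4, MXI1 and MNT, and MLX, a relative of MAX. All 10 symbols were paired with 1 identifier each. 22RV1 and PC3 are established human prostate carcinoma lines. Each line carried a lentiviral pLKO.1 vector with either a control hairpin (shCON) or 1 hairpin against DDX52 (shDDX52), a DEAD-box RNA helicase, and stable cells were selected with puromycin. RNA-seq of total RNA gave 1 library for each of the 4 conditions, so no value below has a replicate, an error or a p-value, and "higher" and "lower" compare single libraries. Values are TPM (transcript abundances), a length-corrected share of all transcripts that allows levels of different genes to be set side by side but keeps no sequencing depth.

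The proteins of this network share a basic helix-loop-helix leucine zipper, the fold that pairs 2 such proteins and lets the pair bind the E-box, a short DNA motif read CACGTG. MYC proteins pair with MAX and activate genes of growth, ribosome production and metabolism. The MXD proteins and MNT also pair with MAX, at the same E-boxes, and recruit SIN3 corepressors and histone deacetylases, so they oppose MYC. MLX pairs with some MXD proteins and MNT and with the nutrient sensors MLXIP (MondoA) and MLXIPL (ChREBP), which connects the network to glucose.

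The E-box itself was looked for in RefSeq promoters on GRCh38.p14, taken from 250 bases before to 50 bases after each annotated start. Promoters were found for 9 of the 10 members, all but MYC. The 6 letters CACGTG, which read the same on both strands, were present in 3 of the 12 promoters of these 9 members, those of MXD4, MNT and MLX, and in 7.26% of all 35116 promoters searched. The GC content of these 3 was 72.3%, 76% and 71%, beside a median of 58.7% over all promoters. MXD4 and MNT are also the members with the highest log2 ratios in 22RV1, described further on, which is why these stretches are shown. MLX, however, had −0.0035 in 22RV1, and MXD3, the next highest member at 0.40, has no CACGTG in its promoter. In PC3 the log2 ratios of MXD4 and MNT were −0.098 and 0.10. A link between the motif and these ratios was not tested. Each stretch lies upstream of the gene's first base in GENCODE 29, with the E-box in capitals. The E-box of MXD4 starts 238 bases before the RefSeq start, in chr4:2262295-2262359 on the minus strand. That of MNT starts 193 bases before its start, in chr17:2401201-2401300 on the minus strand, and that of MLX 50 bases before, in chr17:42567003-42567067 on the plus strand.
MXD4: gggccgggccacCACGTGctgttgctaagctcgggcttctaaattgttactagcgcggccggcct
MNT: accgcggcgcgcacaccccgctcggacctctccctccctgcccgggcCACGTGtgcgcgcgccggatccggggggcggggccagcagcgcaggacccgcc
MLX: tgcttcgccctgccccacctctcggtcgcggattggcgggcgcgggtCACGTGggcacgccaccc
These matches are letters in a window and no measure of binding.

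DDX52 itself stood at 4.88 (shCON) and 1.2 (shDDX52) TPM in 22RV1 cells and at 9.2 (shCON) and 2.07 (shDDX52) TPM in PC3 cells. The line markers followed the labels for the most part: KLK2 was 32.6 and 23.1 TPM in 22RV1 and listed at 0 in both PC3 libraries, while CAV1 was 162 and 130.2 TPM in PC3 and at most 0.45 in 22RV1. VIM had 12.6 (shCON) and 66.7 (shDDX52) TPM in PC3 cells, so a marker also differed between libraries of 1 line. PTPRC, an immune marker, stayed at or below 0.39 TPM, and PECAM1, an endothelial one, was 5.03 TPM in PC3 shCON. Genes annotated as rRNA, those of the mitochondrial genome included, held 1.58% and 0.54% of the TPM in 22RV1 and 0.518% and 3.69% in PC3, shCON first. The mitochondrial genome's share was 9.81% (shCON) and 13% (shDDX52) for 22RV1, and 8.1% (shCON) and 10.3% (shDDX52) for PC3. Mitochondrial rRNA genes are counted in both shares. Since each TPM value is a share of all transcripts, such differences shift the other values. Their part in the results was not tested beyond the rescaling described below. The deposited TPM did not sum to the same total in each library, with 984448 in PC3 shDDX52 and 990860 in 22RV1 shDDX52 as the extremes.

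**Figure D1:**
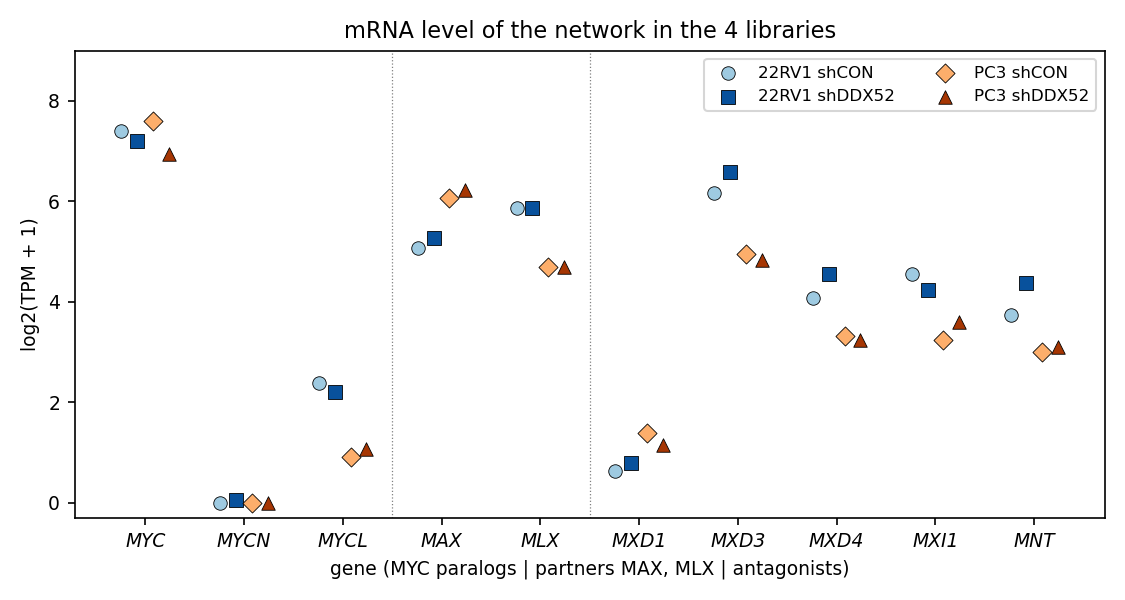
Level of each of the 10 members in the 4 libraries, as log2(TPM + 1), with 1 point per library and dotted lines between MYC paralogs, partners and antagonists. MYC is highest in every library, MYCN is at or near 0, and the antagonists MXD3, MXD4, MXI1 and MNT sit lower in PC3 than in 22RV1.

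MYC had the highest level of the 10 members in every library. MYC mRNA stood at 169 (shCON) and 147 (shDDX52) TPM in the 22RV1 libraries and 192 (shCON) and 122 (shDDX52) TPM in the PC3 libraries. PC3 shCON held the highest and PC3 shDDX52 the lowest level, and MYC made up between 36.6% and 56.5% of the TPM of the 10 members. MYC supplied between 97.5% and 99.5% of the summed TPM of the 3 paralogs. MYCL, a paralog of narrower expression, was 4.24 and 3.59 TPM in 22RV1 and 0.87 and 1.11 TPM in PC3. MYCN, the paralog best known from neuroblastoma and neuroendocrine prostate cancer, was listed at 0 in 3 libraries and at 0.04 TPM in 22RV1 shDDX52, so the mRNA of this gene is not described further.

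MAX, the partner that MYC, MXD and MNT proteins share, had 32.5 (shCON) and 37.8 (shDDX52) TPM in 22RV1 cells, and 66.5 (shCON) and 73.5 (shDDX52) TPM in PC3 cells. Both PC3 values lay above both 22RV1 values. The level of MAX mRNA was below that of MYC mRNA in every library. MAX reached 11% of the summed TPM of the MYC paralogs and antagonists in 22RV1 cells with shCON, 12.4% with shDDX52, and 26.7% and 40.9% in PC3 cells, again shCON first.

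Of the antagonists, MXD3 had the highest level in each library. MXD3, a member of the family linked to S phase, had 71.2 (shCON) and 94.4 (shDDX52) TPM in 22RV1 cells, and 30.1 (shCON) and 27.7 (shDDX52) TPM in PC3 cells. It made up between 49.3% and 60.9% of the antagonist TPM. MXI1, which is inducible by hypoxia, had 22.5 and 17.8 TPM in 22RV1 cells and 8.46 and 11.2 TPM in PC3 cells, shCON first. MXD4, often found in differentiating cells, was 15.8, 22.4, 9.05 and 8.39 TPM in the same order. MNT, the antagonist that is broadly present in growing cells, was 12.3, 19.6, 7.05 and 7.64 TPM. For MXD3, MXD4, MXI1 and MNT, both 22RV1 values lay above both PC3 values. MXD1, the founding antagonist, stayed at 0.56 and 0.72 TPM in 22RV1 and at 1.61 and 1.22 TPM in PC3.

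MLX was 57.5 and 57.4 TPM in 22RV1 and 24.7 and 24.9 TPM in PC3, shCON first. The order of the members in 22RV1 shCON was MYC, MXD3, MLX, MAX, MXI1, MXD4, MNT, MYCL, MXD1 and MYCN. In PC3 shCON it was MYC, MAX, MXD3, MLX, MXD4, MXI1, MNT, MXD1, MYCL and MYCN. With 1 library per condition no spread is known, so neighbours in these orders cannot be separated, such as MXD4 and MXI1 in PC3 shCON at 9.05 and 8.46 TPM.

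The first comparison was between the control cells of the 2 lines, which came in separate tables whose joint normalization is not given in the sources used here. Differences were computed as log2((TPM + 1) / (TPM + 1)), over genes that reached 1 TPM in one or both libraries, and a gene was called past the threshold at 1.5-fold on this scale. The pseudocount of 1 understates differences of low genes. Of the 9 members that reached 1 TPM, 8 differed at least 1.5-fold between PC3 shCON and 22RV1 shCON, where 61.5% of all 15727 genes tested did so. There were 6 members lower in PC3 shCON and 2 higher, against 32.2% and 29.3% of all genes.

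MYC was the member that did not pass, with a log2 ratio of 0.19. MAX was 2.04-fold higher in PC3 shCON, with a log2 ratio of 1.01, and the low MXD1 had a log2 ratio of 0.74. The lower members were MYCL (−1.49), MXI1 (−1.32), MXD3 (−1.22), MLX (−1.19), MXD4 (−0.74) and MNT (−0.73). PC3 control cells thus held 14.1% more MYC mRNA than 22RV1 control cells, more MAX, and less of every antagonist but MXD1. Each of these log2 ratios kept its sign under the other scalings, in ranges such as 0.95 to 1.08 for MAX and −1.28 to −1.15 for MXD3. Since most genes differed between the lines, these values describe the members and set none of them apart.

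**Figure D2:**
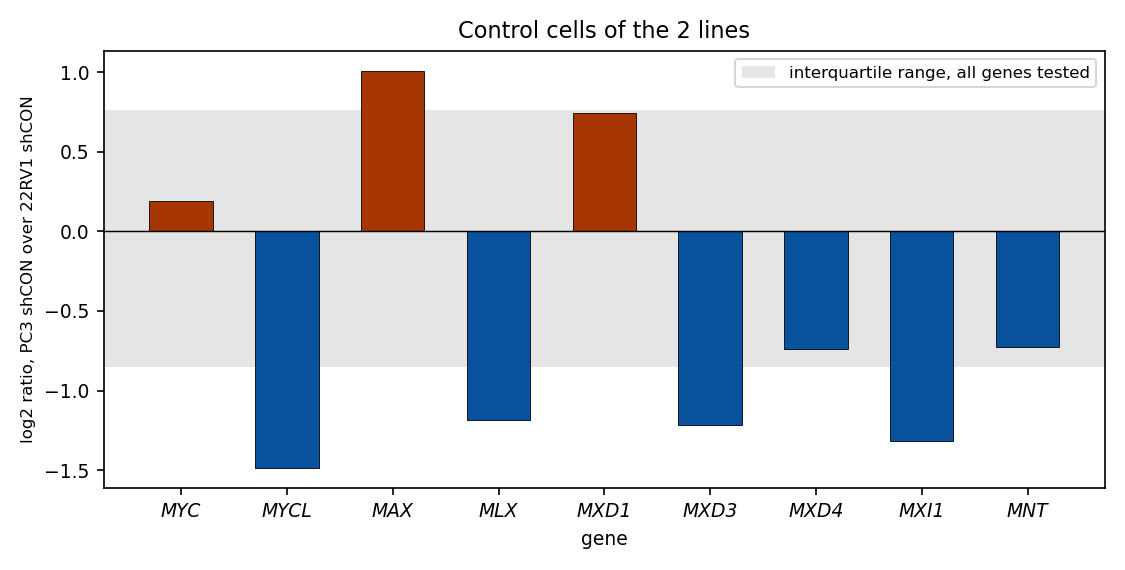
Log2 ratio of each member between control cells, PC3 shCON over 22RV1 shCON, with a pseudocount of 1 TPM. Bars start at 0, and the grey band is the interquartile range of all 15727 genes tested. MYC, MAX and MXD1 stand above 0, and MYCL, MLX, MXD3, MXD4, MXI1 and MNT below.

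The main comparison of the study is DDX52 knockdown within each line, which asks whether c-Myc signaling depends on DDX52. In 22RV1 cells the antagonists MNT, MXD4 and MXD3 were higher with shDDX52 and MYC was slightly lower. Of the 8 members tested, 1 passed 1.5-fold, where 14.1% of all 14438 genes passed. This was MNT, from 12.3 to 19.6 TPM, with a log2 ratio of 0.63 that lay at percentile 95.2 of all genes. Higher by 1.5-fold were 5.61% of all genes and lower 8.47%.

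The next members in 22RV1 were MXD4, with a log2 ratio of 0.48 at percentile 92.6, and MXD3, with 0.40 at percentile 90.6. Neither passed the threshold. MXI1, an antagonist of the same family, had a log2 ratio of −0.33 at percentile 22.2, the opposite direction. MAX had a log2 ratio of 0.21, MYCL −0.19 and MLX −0.0035. MYC had a log2 ratio of −0.20 at percentile 34.4, and 54.8% of all genes differed by at least as much in either direction. The median of all genes was −0.076.

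In PC3 cells the order was different: MYC was lower with shDDX52, and the antagonists went both ways. MXI1 was above its control level, and MXD1 was below, near the 1 TPM floor at 1.61 (shCON) and 1.22 (shDDX52) TPM. Of the 9 members tested, 1 passed 1.5-fold, where 18.8% of all 14262 genes passed, 9.84% lower and 8.95% higher. This was MYC, from 192 to 122 TPM, a change of −36.4%, with a log2 ratio of −0.65 at percentile 8.25. MYC did not pass when TPM was recomputed over nuclear protein-coding genes, which gave −0.52. That scaling moved the log2 ratio of the median gene in PC3 by 0.12, and MYC still lay at percentile 6.61 of the genes tested with it.

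MXI1 was the member furthest up in PC3, from 8.46 to 11.2 TPM, with a log2 ratio of 0.36 at percentile 82.6. MAX had a log2 ratio of 0.14, MNT 0.10, MLX 0.012 and the low MYCL 0.17. MXD1 had a log2 ratio of −0.23, MXD3 −0.12 and MXD4 −0.098, and the last 2 turned to 0.010 and 0.019 with nuclear protein-coding scaling. No member of the network reached 2-fold in either line, where 5.1% of all genes did so in 22RV1 and 6.3% in PC3.

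**Figure D3:**
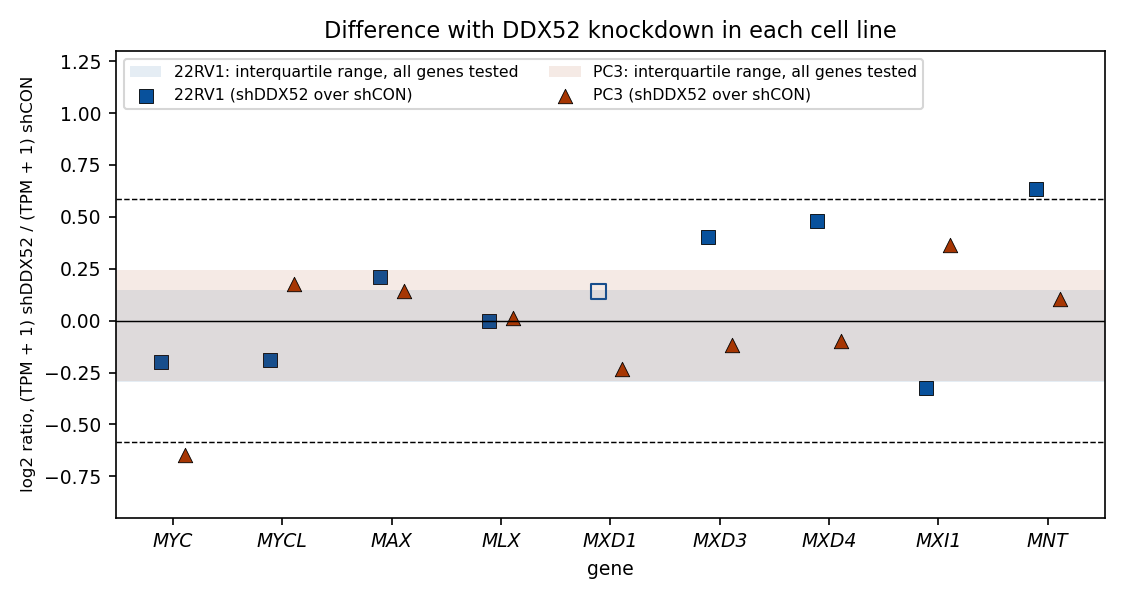
Log2 ratio of shDDX52 over shCON with a pseudocount of 1 TPM, for 9 members in 22RV1 (squares) and PC3 (triangles). The open square is below 1 TPM in both 22RV1 libraries, shaded bands are the interquartile ranges of all genes tested, and dashed lines mark 1.5-fold. MNT in 22RV1 and MYC in PC3 are the points past the dashed lines.

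Side by side, 8 members were tested in both lines. MYC was lower in both, MAX and MNT were higher in both, and MYCL, MXD3, MXD4, MXI1 and MLX had opposite signs. Of these, the signs of MXD3 and MXD4 in PC3 and of MLX in 22RV1 changed with the scaling. The share of all genes with opposite signs was not computed, so this split describes the members and does not set them apart. The largest gap between the lines was that of MXI1, where the PC3 log2 ratio exceeded that of 22RV1 by 0.69, and 17.8% of the 12175 genes tested in both lines had a gap at least as large. For MXD4, MNT, MXD3 and MYC the PC3 log2 ratio was lower than that of 22RV1, with differences of −0.58, −0.53, −0.52 and −0.45. The median size of this gap over all genes was 0.32. None of these gaps was tested, since each rests on 4 single libraries.

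The balance of activators and antagonists was also read within each library, where a ratio does not depend on the scaling. The summed TPM of MYC, MYCN and MYCL came to 173 (shCON) and 150.3 (shDDX52) in 22RV1 cells, and to 193 (shCON) and 124 (shDDX52) in PC3 cells. The summed TPM of MXD1, MXD3, MXD4, MXI1 and MNT was 122, 155, 56.2 and 56.1 in the same order. MYC paralogs over antagonists therefore stood at 1.41 and 0.970 in 22RV1 cells and at 3.44 and 2.20 in PC3 cells, shCON first.

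The ratio was lower with shDDX52 in both lines, with a change of −31.3% in 22RV1 and −35.9% in PC3, through different members. In 22RV1 the antagonist sum was 26.6% higher, with 23.2 of the 32.5 TPM from MXD3, and the MYC sum changed by −13.1%. In PC3 the MYC sum changed by −36.1% and the antagonist sum by −0.231%. With only the MYC sum replaced by its knockdown value, the 22RV1 ratio would be 1.23, and with only the antagonists replaced it would be 1.12. In PC3 the same steps gave 2.20 and 3.45. The ratio stayed lower with shDDX52 when MNT was left out, with changes of −29.3% in 22RV1 and −35.1% in PC3, when MXD3 was left out, with −26.5% and −41.1%, and when only MXD1, MXI1 and MNT were kept, with −19.3% and −45.4%. Each of these versions keeps the same MYC sum, which was lower in both lines, so they vary only the antagonists. All are mRNA ratios and give no measure of the proteins.

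**Figure D4:**
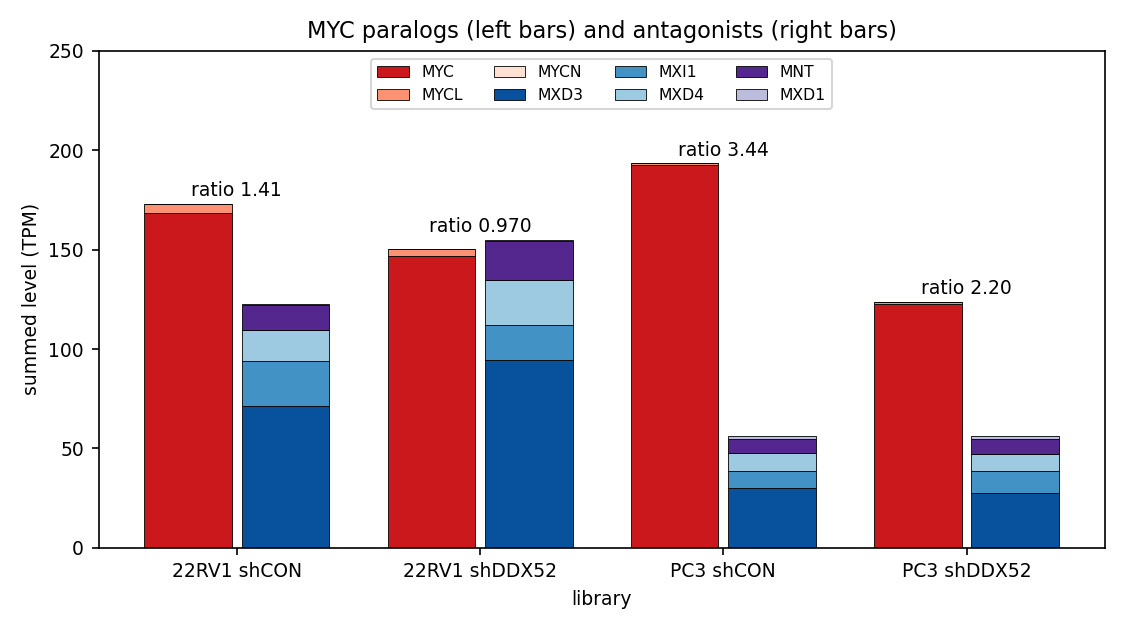
Summed level in TPM of the MYC paralogs (left bar of each pair, red shades) and of the 5 antagonists (right bar, blue and purple shades) in each library, with their ratio above. The ratio is 1.41 and 0.970 in 22RV1 and 3.44 and 2.20 in PC3, shCON first.

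The ratio of MAX to MYC was 0.193 and 0.258 in 22RV1 cells and 0.346 and 0.600 in PC3 cells, shCON first. MXD3 over MYC was 0.422 and 0.644 in 22RV1 and 0.156 and 0.226 in PC3, shCON first. Both ratios were higher with shDDX52 in each line. MYC, the denominator of both, was lower with shDDX52 in each line. In PC3 MXD3 itself was not higher, at 30.1 (shCON) and 27.7 (shDDX52) TPM.

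Genes around the network were grouped by role in 8 lists, and 96 of their 97 symbols were paired with an identifier. The lists were made with earlier results of these data known, so shares of all genes set beside them are a description. The MLX arm holds the MLX partners MLXIP and MLXIPL and the glucose-responsive targets TXNIP and ARRDC4. All 4 had log2 ratios above 0 in 22RV1, where 40.9% of all genes did, with a median of 0.44 beside −0.076. In each line 0 of 4 passed 1.5-fold, against 14.1% of all genes in 22RV1 and 18.8% in PC3. TXNIP, an inhibitor of glucose uptake, was 32.2 and 47.4 TPM in 22RV1 and 44.3 and 51.6 in PC3. MLXIP was 30.8 and 40.5 TPM in 22RV1 and 12.3 and 18.6 in PC3, with log2 ratios of 0.38 and 0.57. The median of the list in PC3 was 0.088, with MLXIPL and ARRDC4 at or below 1.27 TPM there.

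Corepressors that MXD proteins and MNT recruit gave 0 of 8 members past 1.5-fold in either line, with medians of −0.21 in 22RV1 and 0.16 in PC3. SIN3B, a scaffold of this complex, had log2 ratios of 0.33 and 0.28. NCOR1, another corepressor, had −0.29 and 0.45. The list of MGA, a further MAX partner, and its PRC1.6 complex gave 1 of 8 members past 1.5-fold in 22RV1 and 0 of 8 in PC3, with medians of −0.097 and −0.038. That member was RNF2, a ubiquitin ligase for histone H2A, at 6.51 and 3.58 TPM in 22RV1 (log2 ratio −0.71) and 5.99 and 5.38 TPM in PC3, shCON first. CBX3, a heterochromatin protein, had log2 ratios of −0.12 and −0.47. Among all genes tested, 14.1% passed 1.5-fold in 22RV1 and 18.8% in PC3, with medians of −0.076 and −0.036.

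Of all genes tested, 14.1% passed 1.5-fold in 22RV1 and 18.8% in PC3, with medians of −0.076 and −0.036. MYC cofactors gave 0 of 15 members past 1.5-fold in 22RV1 and 0 of 14 in PC3, with medians of 0.070 and 0.069. The members furthest from 0 were MYCBP in 22RV1 (−0.51) and MYCBP2 in PC3 (−0.57), genes named for binding MYC. The acetyltransferase KAT2A was 88.03 and 93.9 TPM in 22RV1 and listed at 0 in both PC3 libraries, and it was singled out after its values were seen. Regulators of MYC protein turnover gave 0 of 15 members past 1.5-fold in 22RV1 and 1 of 15 in PC3, with medians of −0.031 and 0.14. That member, chosen after its values were seen, was the deubiquitinase USP37, at 0.76 and 1.79 TPM in PC3. AURKA, a kinase that shields MYC proteins from degradation, had log2 ratios of −0.46 and 0.14, and USP28, a deubiquitinase of MYC, −0.35 and 0.37.

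Among factors of MYC transcription and mRNA stability, 1 of 14 members was lower by 1.5-fold in 22RV1 and 1 of 13 higher in PC3. Both calls were IGF2BP3, an RNA-binding protein that stabilises MYC mRNA, with 7.29 and 4.51 TPM in the 22RV1 libraries and 5.47 and 8.94 TPM in the PC3 libraries. The list medians were −0.15 and 0.0089, beside −0.076 and −0.036 over all genes. Of all genes, 8.47% were lower by 1.5-fold in 22RV1 and 8.95% higher in PC3. PVT1, the long noncoding RNA next to MYC, was 13.7 and 15.1 TPM in 22RV1 and 30.4 and 33 in PC3, shCON first, and was added after its values were seen. Its levels were slightly higher with shDDX52 in each line while those of MYC were lower.

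Known targets of MYC were described as 2 lists. Of the genes that MYC activates, 15 of 21 tested in 22RV1 and 14 of 20 in PC3 had log2 ratios below 0, where 58.8% and 53.5% of all genes did. Their medians were −0.11 and −0.10, beside −0.076 and −0.036 over all genes. Lower by 1.5-fold were 8.47% of all genes in 22RV1 and 9.84% in PC3, and higher 5.61% and 8.95%. Of this list, 1 member was lower by 1.5-fold in each line and 0 higher. In 22RV1 this was TFRC, the transferrin receptor, from 41.6 to 27.4 TPM. In PC3 it was NCL, the nucleolar protein nucleolin, from 586 to 377 TPM. With nuclear protein-coding scaling the PC3 median turned to 0.027, beside 0.087 over all genes.

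Of the genes that MYC represses, 2 of 5 tested in 22RV1 and 2 of 6 in PC3 were higher by 1.5-fold. These 2 were NDRG1 and CDKN1A in each line. Higher by 1.5-fold over all genes tested were 5.61% and 8.95%. The list of 8 genes was made with earlier results of these data known, so these shares describe it and test nothing. NDRG1, a growth-restraining gene that MYC represses and hypoxia induces, stood at 16.8 (shCON) and 55.5 (shDDX52) TPM in 22RV1 cells and at 193 (shCON) and 376 (shDDX52) TPM in PC3 cells. Its log2 ratios were 1.66 and 0.96, and 1.5% and 6.76% of all genes differed by at least as much. CDKN1A, which encodes the cell cycle inhibitor p21 and is also a target of p53, was 109 and 186 TPM in 22RV1 and 31.2 and 76.3 in PC3, with log2 ratios of 0.76 and 1.26. Both genes kept these directions under each scaling run, with ranges of 1.66 to 1.74 and 0.96 to 1.09 for NDRG1 and 0.76 to 0.84 and 1.26 to 1.39 for CDKN1A.

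Of the other repressed genes, 3 of 3 tested in 22RV1 were below 0, where 58.8% of all genes were, and 3 of 4 in PC3 were above 0, where 46.3% were. CEBPA, named after its values were seen, was the one below 0 in PC3, at 2.3 and 1.05 TPM. The median of the whole list was −0.17 in 22RV1 and 0.22 in PC3. Over members with at least 10 TPM, which were NDRG1, CDKN1A, NDRG2 and GADD45A, the 22RV1 median turned to 0.30.

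**Figure D5:**
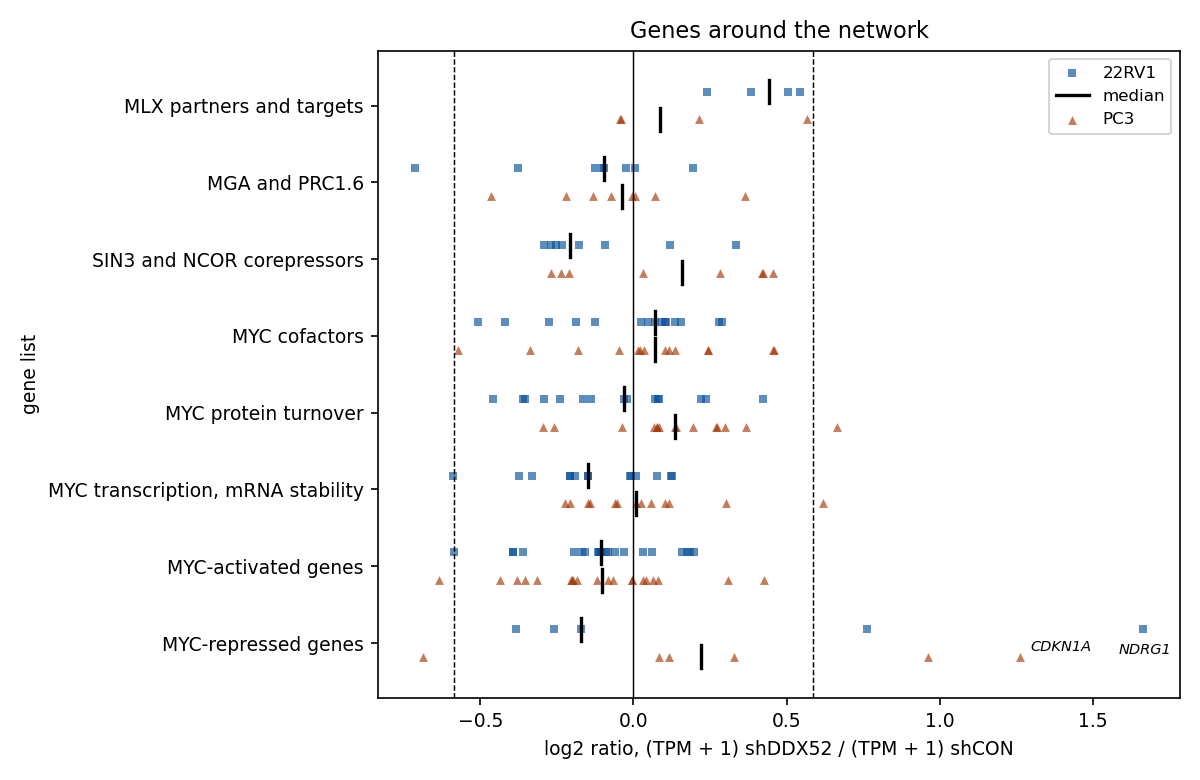
Log2 ratio of shDDX52 over shCON with a pseudocount of 1 TPM, for genes of 8 lists around the network in 22RV1 (squares) and PC3 (triangles), with black ticks at list medians and dashed lines at 1.5-fold. NDRG1 and CDKN1A, in the bottom rows, are higher in both lines, and most other genes lie between the dashed lines.

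The genes whose pattern over the 4 libraries was most like that of MYC were POLR2F, SDHB, SLTM, SMKR1 and CYCS, of 5316 genes with at least 10 TPM in every library. Likeness was the Euclidean distance between log2(TPM + 1) values centred on each gene's mean, from 0.0813 for POLR2F to 0.0881 for CYCS. The median over all these genes was 0.762. The named genes were picked for the smallest distances, so their place below that median follows from the choice. POLR2F, a subunit of the RNA polymerases, was 145 and 131 TPM in 22RV1 and 177 and 113 in PC3, shCON first. CYCS, cytochrome c, was 103 and 95.3 TPM in 22RV1 and 124 and 81.5 in PC3. With 4 libraries this is a description.

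Several members share their position with other genes in GENCODE 29 on GRCh38, and the kit is not described as keeping the strand. MXD3, at chromosome 5 from 177301461 to 177312757, overlaps RAB24 on the same strand and PRELID1 on the other. RAB24 was 106 and 113 TPM in 22RV1 and 28.9 and 24 in PC3, so it was also higher in 22RV1. PRELID1, far above MXD3, was 678 and 723 TPM in 22RV1 and 555 and 511 in PC3, shCON first. As deposited, RAB24 and PRELID1 were higher with shDDX52 in 22RV1 and lower in PC3, as MXD3 was. MLX, at chromosome 17 from 42567068 to 42573239, overlaps PSMC3IP on the other strand, which was 47.9 and 42.8 TPM in 22RV1 and 15.4 and 19.5 in PC3. How reads shared by such pairs were counted is not given in the sources used here, and their part in the levels of MXD3 and MLX was not tested. MAX overlaps FNTB on the other strand, which had between 14.1 and 24.8 TPM, and MXD1 overlaps SNRNP27 on its own strand, with between 23.9 and 44.8 TPM. MNT overlaps an antisense gene at or below 1.77 TPM, and MYC overlaps no other gene in this annotation.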

How the data were processed

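RNA of 22RV1 and PC3 cells with shCON or shDDX52 was sequenced by a provider and mapped on its online platform, with 1 library per condition. The authors deposited TPM values per Ensembl gene, 1 column per library. The submitters' processing notes name CASAVA, HISAT2 and hg19. The quantification program, the annotation and any filter are not given in the sources used here. TPM keeps no depth, so no interval or count test was possible. Libraries were grouped by their titles.

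Symbols came from a table of gene names, and positions and gene types from GENCODE 29 on GRCh38, which listed 58453 of the 60671 genes. Positions and promoters are thus of another build than hg19. Log2 ratios used a pseudocount of 1 and genes reaching 1 TPM in one or both libraries of a comparison, and the threshold was 1.5-fold. Percentiles are among all genes tested.

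The members and lists were chosen with earlier results of these data known. Named genes were the 10 members, DDX52, line markers, in each list the genes past 1.5-fold with at least 5 TPM or otherwise the 1 furthest from 0, and the 5 genes most like MYC. Some line markers covered by this rule are not reported here. The calls were run on simulated data with a small spread, changes of 2-fold or more and genes well above 1 TPM. Changes near 1.5-fold and genes near 1 TPM were not covered there. The distance was checked only with a scaled copy of 1 gene. Alternatives covered the pseudocount (0.1 and 0.5), the filter (none and 10 TPM), the scaling and the antagonists summed. Python 3.11.15, numpy 2.4.6 and pandas 2.3.3 were used.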

Additional observations from a re-analysis of the deposited data

Results flagged for a closer look

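Some results had opposite directions in the 2 lines, by at least 0.1 on the log2 scale in each. None of these differences was tested, since each condition has 1 library. Among the members, the log2 ratio of MXI1 was −0.33 (22RV1) and 0.36 (PC3), that of MXD3 0.40 and −0.12, and that of MYCL −0.19 and 0.17. The value of MXD3 in PC3 turned to 0.010 with nuclear protein-coding scaling. Both MYCL values in PC3 are near 1 TPM.

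Among the genes around the network, IGF2BP3 stood at −0.59 (22RV1) and 0.62 (PC3) on the log2 scale, and TFRC at −0.59 and 0.43. NCOR1 had −0.29 and 0.45, USP28 −0.35 and 0.37, and AURKA −0.46 and 0.14. The median of the SIN3 and NCOR corepressors was −0.21 in 22RV1 and 0.16 in PC3. The median of the MYC-repressed genes was −0.17 and 0.22, although CDKN1A and NDRG1 of this list were higher in both lines. Over members with at least 10 TPM these medians were 0.30 and 0.96. In PC3 that filter left NDRG1, CDKN1A and GADD45A, so 0.96 is the log2 ratio of NDRG1. In 22RV1 it left the same genes and NDRG2, with log2 ratios of −0.26 for GADD45A and −0.17 for NDRG2.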

How the results depend on the processing

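Of 261 recomputed values for 57 results, 217 moved by less than 0.1 on the log2 scale (counts and shares by less than 1.5 times), 44 moved, and 0 values past 1.5-fold changed sign. The cause was not tested, and TPM without depth sets no limit on the error of a single value. No paired analysis was possible because each comparison within a line has 1 library a side, which also kept any library from being left out. A fit over both lines with the line as block was not run. With nuclear protein-coding scaling in PC3, MYC moved to −0.52, the number of members past 1.5-fold to 0, and the list medians to 0.19 (MLX arm), 0.086 (MGA and PRC1.6), 0.29 (corepressors), 0.20 (cofactors), 0.26 (turnover), 0.027 (MYC-activated) and 0.35 (MYC-repressed). Of all genes called in PC3, 67.4% were higher with this scaling against 47.6% as deposited, and in 22RV1 51.4% when centred on all genes against 39.8%. With at least 10 TPM, medians in PC3 moved to 0.39 (MLX arm), −0.15 (MGA and PRC1.6), 0.033 (corepressors) and 0.96 (MYC-repressed), that of MYC-repressed genes in 22RV1 to 0.30, and the share of all genes past 1.5-fold in 22RV1 to 8.01%. Without a filter that share was 4.16% in 22RV1, 5.13% in PC3 and 17.8% between control lines. MYC paralogs over antagonists, for 22RV1 shCON, 22RV1 shDDX52, PC3 shCON and PC3 shDDX52, were 1.57, 1.11, 3.93 and 2.55 without MNT, 3.37, 2.48, 7.39 and 4.35 without MXD3 (chosen after seeing the data), and 4.88, 3.94, 11.3 and 6.17 with MXD1, MXI1 and MNT only.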

Other observations

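KAT2A lies on chromosome 17 near MLX in GENCODE 29, and its neighbours were looked at after its values were seen. Of the 16 protein-coding genes from KAT2A to MLX, 15 had at least 1 TPM in 22RV1 shCON, and 7 of these were listed at 0 in both PC3 libraries. The matching share over all genes was not computed, so how unusual this count is cannot be told. Among them, STAT5B was 13.7 TPM and GHDC 35.1 TPM in 22RV1 shCON. RAB5C, at 154 TPM in 22RV1 shCON, was 0.03 and 0 TPM in PC3, and STAT3, at 21.6 TPM, was 0.02 and 0.09 TPM. At the MLX end of this stretch, NAGLU was 12.6 and 9.55 TPM in PC3, COASY 78 and 66.1 TPM, and MLX 24.7 and 24.9 TPM.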
